A study of Mus musculus with 4 samples.

Results

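Transcripts of Toll-like receptors and their partners were examined in bone marrow B220+ cells of C57BL6/J mice. The set held 10 genes chosen by name: the receptors Tlr1, Tlr2, Tlr3, Tlr4, Tlr6, Tlr7 and Tlr9, the trafficking protein gene Unc93b1, the adaptor gene Myd88 and the receptor-like gene Cd180. A row of the array's signal table carried the name of 9 of them, among 17916 genes in all, and these 9 genes had 11 probes. Tlr9 was not analysed here. The 4 groups were wild-type (WT) CD43+ cells, WT CD43- cells, and the same sorted fractions of mice lacking both Btg1 and Btg2 (dKO). The CD43+ sort corresponds by its label to Hardy fractions A, B and C, the stages up to the pro-B cell, and the CD43- sort to fractions D, E and F, the stages from the pre-B cell to the mature B cell. Each group was 1 array, and neither the age of the mice nor the number pooled for an array is given in the sources used here.

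Toll-like receptors are membrane proteins that recognise conserved microbial molecules. TLR1, TLR2, TLR4 and TLR6 act at the cell surface, where TLR2 pairs with TLR1 or TLR6 to bind bacterial lipopeptides and TLR4 binds lipopolysaccharide. TLR3, TLR7 and TLR9 sense nucleic acids in endosomes, to which UNC93B1 escorts them. MYD88 carries the signal of nearly all of these receptors except TLR3. CD180 (RP105) is a TLR4-like surface protein of B cells that lacks a TIR signalling domain and works with the small protein MD-1, encoded by Ly86. B cells are known to respond directly to ligands of several of these receptors, and plasmacytoid dendritic cells, which carry B220 in mice, are known for TLR7 and TLR9.

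The arrays detected 39.5% to 43.3% of 25697 probes, at a detection p under 0.01, and the typical probe was carried by 38 to 39 beads. The mean signal was 550.7 and 555.2 on the WT arrays and 662.1 and 648.1 on the dKO arrays, so genotype and raw array brightness cannot be told apart. Signals below are on the scanner's linear scale with the standard error (SE) of the beads, whereas differences are on the normalized log2 scale, which removes the brightness gap. A bead SE and the 95% intervals made from it cover the reading of 1 array and no difference between animals. Signals of different probes do not rank the genes. Of the targeted genes, Btg1 differed by -1.71 (CD43+) and -1.44 (CD43-) between dKO and WT on its brighter probe, and Btg2 was detected on no array. Whether these probes lie in the deleted parts is not known here, so they do not check the genotype. The B-lineage gene Cd79b was detected on all 4 arrays.

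**Figure D1:**
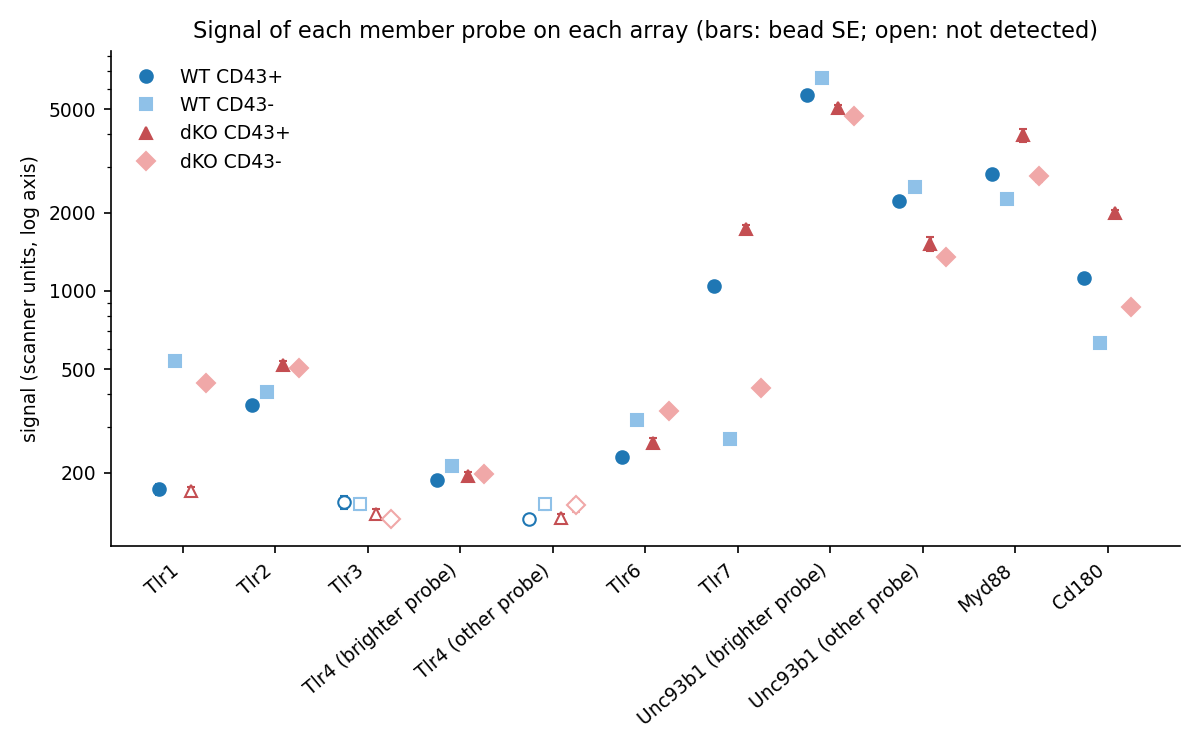
Signal of each probe of the 9 genes (scanner units, log axis) on the 4 arrays, with bars of 1 bead SE that are often smaller than the symbol and open symbols where the probe was not detected. Tlr1 lies at 539 and 443 in CD43- cells against 173 and 169 in CD43+ cells, Tlr7 lies the other way, and Tlr3 is open on every array.

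Both fractions carried transcripts of most members. At the detection threshold, 7 of the 9 genes were detected on all 4 arrays, Tlr1 was detected on 3 and Tlr3 on none. Of the 4 members whose levels differed between fractions in the fit across all genes, Tlr1 and Tlr6 were higher in CD43- cells, and Tlr7 and Cd180 were higher in CD43+ cells. That fit was additive over the 4 arrays (limma, genotype as a block, Benjamini-Hochberg adjustment over 8962 genes) and has 1 residual degree of freedom. It called 10.2% of all genes higher in CD43- cells and 12.9% lower, against 2 and 2 of the 8 members that entered it. Counts of 2 in 8 members do not set these genes apart from the rest.

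Tlr1 encodes the partner of TLR2 in the recognition of triacylated lipopeptides. Its signal, with the bead SE, was 173 ± 7.93 (WT) and 169 ± 6.90 (dKO) among CD43+ cells and 539 ± 22.6 (WT) and 443 ± 20.1 (dKO) among CD43- cells. Both CD43- arrays lay above both CD43+ arrays, where the probe was close to background: it was detected in WT CD43+ cells and just missed the threshold of detection in dKO CD43+ cells. Tlr1 was 9.74-fold higher in CD43- than in CD43+ cells of WT mice (log2 3.28, bead SE 0.268) and at least 7.29-fold higher in dKO mice. The fitted fraction effect was 3.09 ± 0.18 (SE of the fit, log2; limma adjusted p = 0.0026, higher in 2 of 2 genotypes). Its size depended on the background correction, with 1.56 for signals left uncorrected and 3.84 in the authors' RMA values.

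Tlr6, which encodes the partner of TLR2 for diacylated lipopeptides, is the next protein-coding gene to Tlr1 on chromosome 5 (RefSeq, GRCm38.p6). Its signal was 229 ± 7.89 (WT) and 260 ± 10.6 (dKO) among CD43+ cells and 319 ± 11.5 (WT) and 346 ± 11.8 (dKO) among CD43- cells. Both CD43- arrays were again above both CD43+ arrays, and the gap was smaller than for Tlr1. Tlr6 was 2.04-fold higher in CD43- cells of WT mice (log2 1.03, bead SE 0.134) and 1.81-fold higher in dKO mice (0.85, bead SE 0.138), with a fitted effect of 0.94 ± 0.16 (limma adjusted p = 0.0208). In the authors' RMA values the effect was 1.07 with an adjusted p of 0.0529, which misses the threshold. Tlr1 and Tlr6 are close paralogs, the probe sequences are not in the files used here, and whether a probe reads both transcripts was not tested.

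The promoter windows of this neighbouring pair, which were both higher in CD43- cells, are shown with that of Cd180, which was lower there. Each runs from 250 bases before to 50 bases after a RefSeq start (GRCm38.p6), on the strand of the gene: chr5:64933509-64933808, minus strand, for Tlr1, chr5:64959117-64959416, minus strand, for Tlr6 and chr13:102693297-102693596, plus strand, for Cd180. Capitals mark matches to GAGGAA (PU.1/ETS core), GAAANNGAA (interferon-stimulated response element core), CCCNNGGGA (EBF1 core) or ATGCAAAT (octamer) on either strand.
Tlr1: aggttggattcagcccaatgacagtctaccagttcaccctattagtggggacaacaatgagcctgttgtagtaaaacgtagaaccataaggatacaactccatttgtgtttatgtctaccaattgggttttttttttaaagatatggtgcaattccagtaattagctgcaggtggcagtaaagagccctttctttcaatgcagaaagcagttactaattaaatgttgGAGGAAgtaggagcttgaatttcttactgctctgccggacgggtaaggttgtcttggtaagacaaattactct
Tlr6: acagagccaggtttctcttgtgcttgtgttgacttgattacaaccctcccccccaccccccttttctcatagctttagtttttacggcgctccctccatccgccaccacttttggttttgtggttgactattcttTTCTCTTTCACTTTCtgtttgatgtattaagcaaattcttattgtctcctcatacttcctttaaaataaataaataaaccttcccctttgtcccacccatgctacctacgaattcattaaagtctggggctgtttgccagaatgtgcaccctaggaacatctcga
Cd180: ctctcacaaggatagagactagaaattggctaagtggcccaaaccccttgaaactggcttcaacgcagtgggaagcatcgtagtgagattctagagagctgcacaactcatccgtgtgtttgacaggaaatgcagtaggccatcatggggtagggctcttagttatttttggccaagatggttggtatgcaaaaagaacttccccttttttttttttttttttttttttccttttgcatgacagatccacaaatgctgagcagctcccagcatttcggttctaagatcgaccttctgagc
The Tlr1 window held GAGGAA from position -23, counted from the start site, a motif present in 28.1% of 32544 promoter windows. The Tlr6 window held 2 overlapping matches to GAAANNGAA on the opposite strand, from -115 and -109, a motif present in 8.53% of windows, and 1 match to the RUNX core TGTGGT at -132, present in 16.7%. The Cd180 window held none of these and 1 E-box (CANNTG, present in 72.3%) at -1, and the Tlr1 window held 3 E-boxes. The cores CCCNNGGGA (6.6% of windows) and ATGCAAAT (1.75%) were in none of the 3 windows. Tlr1, Tlr6 and Cd180 each have a second RefSeq start with a window of its own: that of Tlr1 held 1 E-box, that of Cd180 the same E-box and that of Tlr6 no match. These letters are a description of the sequence and not evidence of binding.

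Tlr2 encodes the common partner of TLR1 and TLR6. Its signal was 365 ± 10.1 (WT) and 521 ± 18.2 (dKO) among CD43+ cells and 408 ± 11.6 (WT) and 506 ± 15.7 (dKO) among CD43- cells. After normalization the lowest array was WT CD43+, and the other 3 lay within 0.06 of their neighbour in the order, less than the bead error. The difference between CD43- and CD43+ cells was 0.29 (bead SE 0.084) in WT and 0.06 (bead SE 0.090) in dKO mice, with a fitted effect of 0.18 ± 0.16 (limma adjusted p = 0.463).

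Tlr4, the lipopolysaccharide receptor, was read near background. Its brighter probe gave 187 ± 7.76 (WT) and 194 ± 7.46 (dKO) among CD43+ cells and 211 ± 7.54 (WT) and 198 ± 7.59 (dKO) among CD43- cells, and its other probe was not detected on any array. The highest normalized level, in WT CD43- cells, was 0.61 (bead SE 0.201) above the next, and the other 3 arrays did not differ beyond bead error from their neighbours. The fitted fraction effect was 0.44 ± 0.18 (limma adjusted p = 0.155). Cd14 and Lbp, which hand lipopolysaccharide to TLR4, were also detected on no array, whereas Ly96, which encodes the TLR4 co-receptor MD-2, was detected on all 4 with signals from 424 to 639.

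Among the endosomal receptors, Tlr7, a sensor of single-stranded RNA, showed the opposite pattern to Tlr1. Its signal was 1044 ± 34.2 (WT) and 1731 ± 56.6 (dKO) among CD43+ cells and 270 ± 10.4 (WT) and 425 ± 14.9 (dKO) among CD43- cells. Both CD43+ arrays lay above both CD43- arrays, and within each fraction dKO lay above WT, each step being beyond bead error. Tlr7 was 6.28-fold lower in CD43- than in CD43+ cells of WT mice (log2 -2.65, bead SE 0.118) and 5.01-fold lower in dKO mice (-2.33, bead SE 0.085). The fitted fraction effect was -2.49 ± 0.17 (limma adjusted p = 0.00322, lower in 2 of 2 genotypes). It lay between -2.58 and -1.95 under the 7 alternatives, of which those on detection and on the mean of probes leave it unchanged by construction.

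Markers of plasmacytoid dendritic cells moved with Tlr7 between the fractions. Of 12 such genes, 11 were tested, of which 10 were at least 2-fold lower in CD43- cells and 1 (Spib, also a B-cell gene) at least 2-fold higher, in both genotypes. Their summed normalized signal was 75326 and 83299 in WT and dKO CD43+ cells against 11264 and 15705 in CD43- cells. The defining marker Siglech had signals of 11233 and 14011 in CD43+ cells and 228 and 1176 in CD43- cells, and Ccr9 was detected on no array. Markers of T cells (7 of 7 and 6 of 7 tested genes at least 2-fold lower) and NK cells (5 of 7 in both genotypes) were also lower in CD43- cells, with summed normalized signals of 9118 and 12123 against 713 and 1324 for T cells and 11289 and 14731 against 1097 and 1957 for NK cells. Of the neutrophil markers, 7 of 9 tested were at least 2-fold lower in CD43- cells of WT mice and 0 of 8 in dKO mice. Their summed normalized signals were 32652 and 6874 in WT and dKO CD43+ cells against 10664 and 8943 in CD43- cells. Monocyte and macrophage markers (2 of 4 and 2 of 5 at least 2-fold lower) summed to 3732 and 913 against 519 and 477. The part of these cells in the level of Tlr7 was not tested, and in sorted bulk samples fewer cells of a type and less RNA per cell cannot be told apart.

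Tlr3, a sensor of double-stranded RNA, had signals of 154 ± 8.73 and 139 ± 5.87 among CD43+ cells (WT, then dKO) and 152 ± 7.80 and 133 ± 4.35 among CD43- cells, none of which was above background, the nearest at a detection p of 0.0739. No difference is given for it, and its transcript was not detectable with this probe.

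Unc93b1, which escorts the endosomal receptors from the endoplasmic reticulum, had 2 detected probes. The brighter gave 5655 ± 193.0 (WT) and 5033 ± 159.0 (dKO) among CD43+ cells and 6575 ± 296.0 (WT) and 4690 ± 187.0 (dKO) among CD43- cells. The other gave 2223 ± 78.3 and 1521 ± 95.6, and 2518 ± 89.4 and 1349 ± 49.0, in the same order. On both probes the 2 dKO arrays lay below the 2 WT arrays, although the dKO arrays were brighter as a whole, and within dKO the fractions did not differ beyond bead error. The fitted fraction effect was 0.07 ± 0.17 (limma adjusted p = 0.784). The difference of dKO from WT was -0.55 (bead SE 0.075) in CD43+ and -0.84 (bead SE 0.089) in CD43- cells on the brighter probe. The other probe gave -1.01 (bead SE 0.111) and -1.30 (bead SE 0.086), which is 2.02-fold and 2.46-fold lower.

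Cd180 was higher in CD43+ cells. Its signal was 1123 ± 44.0 (WT) and 1989 ± 50.6 (dKO) among CD43+ cells and 631 ± 23.6 (WT) and 868 ± 27.3 (dKO) among CD43- cells. The CD43+ arrays lay above the CD43- arrays, with dKO above WT within each fraction, the same order of the 4 arrays as for Tlr7. Cd180 was 1.97-fold lower in CD43- cells of WT mice (log2 -0.98, bead SE 0.089) and 2.38-fold lower in dKO mice (-1.25, bead SE 0.066), with a fitted effect of -1.11 ± 0.17 (limma adjusted p = 0.0152). In the authors' RMA values the effect was -1.13 with an adjusted p of 0.0523. Its partner gene Ly86 was detected on all arrays, with signals from 4674 to 7900 and a fitted fraction effect of -0.35 ± 0.19 (limma adjusted p = 0.25).

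Myd88, the shared adaptor, had signals of 2815 ± 104.0 (WT) and 3972 ± 233.0 (dKO) among CD43+ cells and 2261 ± 85.7 (WT) and 2756 ± 122.0 (dKO) among CD43- cells, read from 27 to 30 beads except in dKO CD43+ cells, where 17 beads gave a wider error. After normalization the CD43+ arrays lay above the CD43- arrays and the genotypes did not differ beyond bead error within either fraction. The difference between CD43- and CD43+ cells was -0.38 (bead SE 0.079) in WT and -0.49 (bead SE 0.113) in dKO mice. The fitted effect of -0.44 ± 0.16 did not pass the threshold (limma adjusted p = 0.114), but it did without background correction (-0.42, adjusted p = 0.0173).

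**Figure D2:**
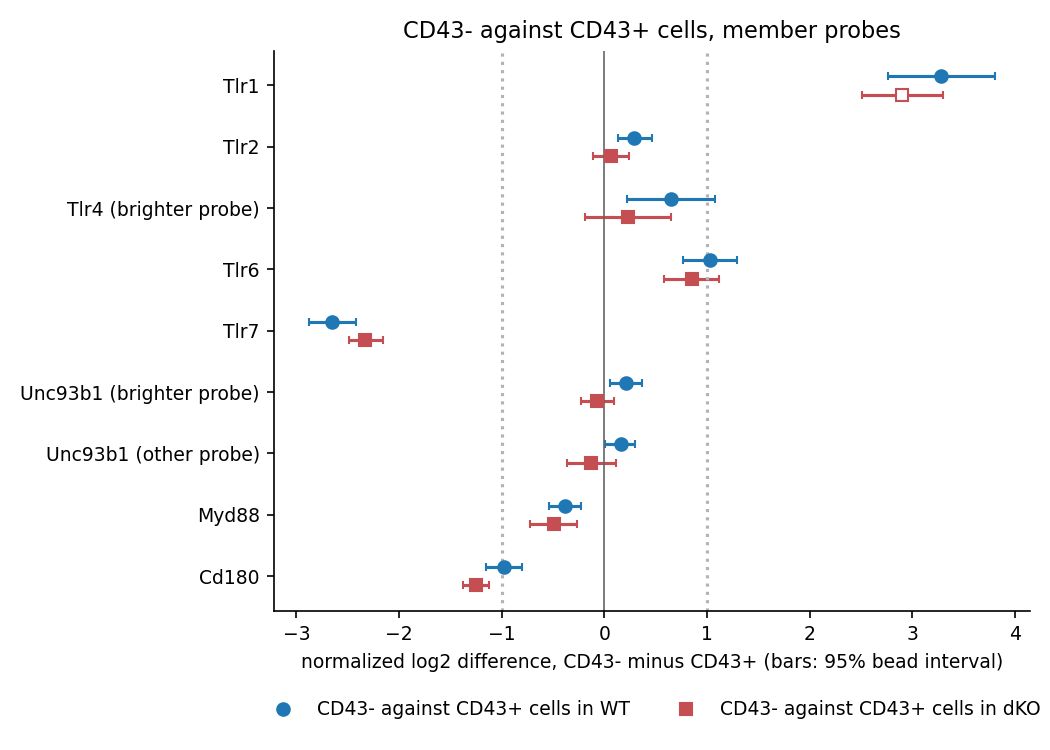
Normalized log2 difference between CD43- and CD43+ cells for each probe detected on at least 1 of the arrays compared, in WT (circles) and dKO mice (squares), with 95% intervals from the beads, dotted lines at 2-fold and an open symbol where 1 of the 2 arrays did not detect the probe. Tlr1 lies at 3.28 and 2.90 and Tlr7 at -2.65 and -2.33, while both Unc93b1 probes lie near 0.

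By fold within each genotype, where 1 array stands against 1 and there is no test, 2 of 8 members (Tlr1 and Tlr6) were at least 2-fold higher in CD43- cells of WT mice, against 6.25% of 8539 genes. In the other direction it was 1 of 8 (Tlr7), against 8.55%. In dKO mice 1 of 8 members (Tlr1) was at least 2-fold higher, against 5.39% of 8495 genes, and 2 of 8 (Tlr7 and Cd180) at least 2-fold lower, against 8.04%. The median difference of the 8 members was 0.25 in WT, against 0.06 for all genes tested, and 0.0 in dKO mice, against 0.05.

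The comparison of genotypes asked whether the loss of BTG1 and BTG2 went with other levels of these receptors. No member reached 2-fold by its brighter probe in either fraction. Over all genes, 1.17% of 8631 were 2-fold or more higher in dKO CD43+ cells and 1.44% lower, and for CD43- cells these shares were 2.35% and 1.25% of 7944. Those shares rest on 101 genes higher and 124 lower in CD43+ cells and on 187 and 99 in CD43- cells, and scaling arrays on their median turned the split to 310 and 57, and 374 and 44. In CD43- cells the largest difference on the brighter probe was the -0.84 of Unc93b1 given above, followed by Tlr1 (-0.73, bead SE 0.117), Tlr7 (0.69, bead SE 0.126) and Tlr4 (-0.61, bead SE 0.201). In CD43+ cells Unc93b1 stood at -0.55, Cd180 at 0.47 (bead SE 0.076), Tlr7 at 0.37 (bead SE 0.073) and Tlr2 at 0.29 (bead SE 0.092).

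Tested over both fractions, none of the 8 members passed the threshold for genotype in limma, and 3 of them (Unc93b1, Tlr7 and Tlr1) had an unadjusted p under 0.05. The fitted genotype effect was -0.69 ± 0.17 for Unc93b1 (adjusted p = 0.202, lower in 2 of 2 fractions), 0.53 ± 0.17 for Tlr7 (adjusted p = 0.251, higher in 2 of 2) and -0.54 ± 0.18 for Tlr1 (adjusted p = 0.253, lower in 2 of 2). The Tlr1 value used a dKO CD43+ array that did not detect the probe, and in CD43+ cells alone its difference was -0.35 (95% bead interval -0.96 to 0.27), or -0.09 without background correction. Over all 8962 genes this fit called 0.0223% higher and 0.0% lower, while 1593 genes had an unadjusted p under 0.05. Without background correction Unc93b1 passed (-0.68, adjusted p = 0.0172), in a fit that called 2.54% of genes higher and 2.62% lower. In the other 6 alternatives Unc93b1 did not pass in limma, with adjusted p-values from 0.0651 (offset of 50) to 0.326 (authors' RMA values).

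**Figure D3:**
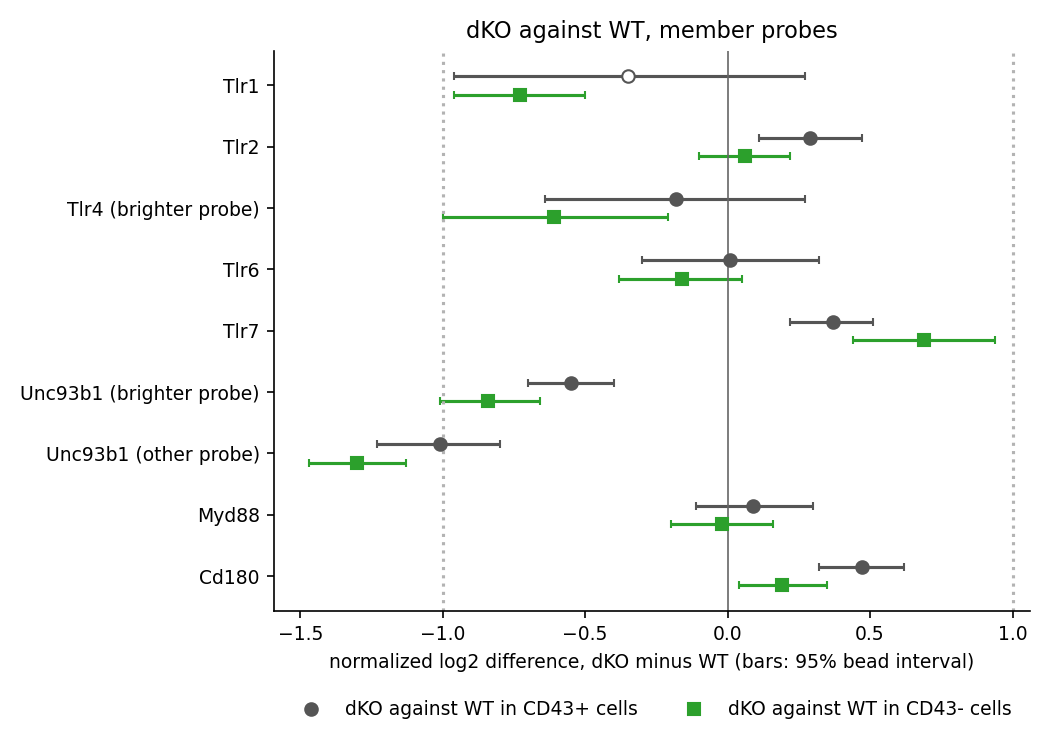
Normalized log2 difference between dKO and WT for each probe in CD43+ (circles) and CD43- cells (squares), with 95% intervals from the beads, dotted lines at 2-fold and an open symbol where 1 of the 2 arrays did not detect the probe. Both Unc93b1 probes lie below 0 in both fractions, from -0.55 to -1.30, and Tlr7 and Cd180 lie above 0.

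Other markers moved with genotype as well. In CD43- cells 6 of 11 tested plasmacytoid dendritic cell markers were at least 2-fold higher in dKO (Siglech 2.95 on the log2 scale), beside the 0.69 of Tlr7. Among CD43+ cells, where Tlr7 stood at 0.37, 0 of 11 were at least 2-fold higher and 1 (Cd209d) was lower, with Siglech at -0.06. In CD43+ cells 8 of 9 tested neutrophil markers were at least 2-fold lower in dKO, with a summed normalized signal of 6874 against 32652 in WT. Neutrophils and monocytes are known to carry TLR2, TLR4 and MYD88, and these 3 genes stood at 0.29, -0.18 and 0.09 in that comparison. The summed normalized signal of the monocyte and macrophage markers was 913 in dKO against 3732 in WT CD43+ cells, mostly from Lyz2, with signals of 818 and 3098 (log2 -2.56). Csf1r stood at -0.84, Adgre1 at -0.28 and Cx3cr1 at 1.30, and Cd14, Fcgr1, Ccr2 and Itgam were detected on no array. The part of these cells in the values of the members was not tested.

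**Figure D4:**
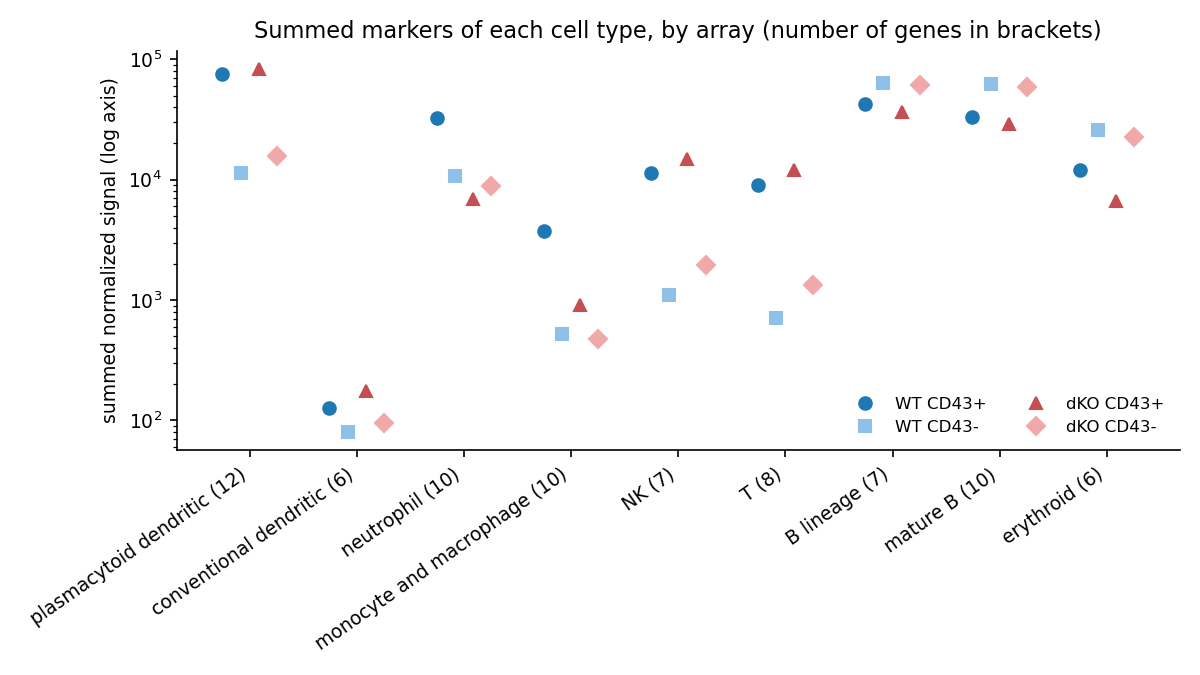
Summed normalized signal (log axis) of 9 lists of cell type markers on the 4 arrays, with the number of genes on the array in brackets. Plasmacytoid dendritic, NK and T cell sums are higher on both CD43+ arrays, mature B cell sums are higher on both CD43- arrays, and the neutrophil sum is highest in WT CD43+ cells.

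The mature B-cell and erythroid lists moved with Tlr1 and Tlr6 between the fractions. In both genotypes 8 of 10 mature B-cell genes were at least 2-fold higher in CD43- cells, and their summed normalized signal was 62416 and 58806 in WT and dKO CD43- cells against 32878 and 28858 in CD43+ cells. Cd40 had signals of 316 and 328 in CD43+ and 3235 and 2945 in CD43- cells. Erythroid markers moved the same way, with 4 of 5 tested genes in WT and 5 of 5 in dKO at least 2-fold higher in CD43- cells and summed normalized signals of 12049 and 6646 in WT and dKO CD43+ cells against 25783 and 22436 in CD43- cells. The part of B-cell stage or of erythroid cells in the levels of Tlr1 and Tlr6 was not tested.

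How far the genotype differences themselves differed between the fractions has no test, since 4 arrays and 4 parameters leave no residual degree of freedom. By bead error alone, the difference between dKO and WT was more positive in CD43- than in CD43+ cells for Tlr7 (0.32, 95% bead interval 0.04 to 0.61). It was more negative for Unc93b1 (-0.29, interval -0.51 to -0.06) and less positive for Cd180 (-0.27, interval -0.49 to -0.06). For Tlr1, Tlr2, Tlr4, Tlr6 and Myd88 the interval held 0.

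The wider pathway was described with 40 further genes of Toll-like receptor signalling. Of these, 39 had a row and 32 were detected on at least 1 array. Tlr8, Tlr11 and Tlr13 were detected on no array. In the fit for fraction 4 of 32 genes were higher in CD43- cells and 3 were lower, next to the 10.2% and 12.9% of all genes given above, and the median was 0.23 against 0.05 for all genes. These shares, 4 and 3 of 32, were near those of all genes.

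The genes that were higher in CD43- cells act downstream of the receptors. Tirap, the bridging adaptor that brings MYD88 to TLR2 and TLR4, had signals of 252 ± 11.1 and 279 ± 12.9 in WT and dKO CD43+ cells and 562 ± 21.6 and 561 ± 22.7 in CD43- cells. It was thus higher on both CD43- arrays, with a fitted effect of 1.77 ± 0.17 (limma adjusted p = 0.00534). Irak3, an inhibitory member of the IRAK kinase family, stood at 1.28 ± 0.18 (adjusted p = 0.013), Traf3, a ubiquitin ligase adaptor of the type I interferon branch, at 1.23 ± 0.17 (adjusted p = 0.0116) and Traf6, the ubiquitin ligase downstream of MYD88, at 0.89 ± 0.17 (adjusted p = 0.0272).

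Lower in CD43- cells were Irf7, Tlr12 and Ikbke. Irf7, the interferon regulatory factor activated downstream of TLR7 and TLR9, had signals of 666 ± 26.9 and 776 ± 34.5 in WT and dKO CD43+ cells and 179 ± 7.29 and 252 ± 14.2 in CD43- cells, with a fitted effect of -2.76 ± 0.30 (limma adjusted p = 0.0067). Tlr12, a receptor for a protozoan profilin in mice, had signals of 216 and 287 in WT and dKO CD43+ cells and was not detected in CD43- cells, at least 1.99-fold lower in WT and at least 2.64-fold lower in dKO mice (adjusted p = 0.00556, from a fit that used its values near background). Ikbke, a kinase that phosphorylates interferon regulatory factors, stood at -0.90 ± 0.17 (adjusted p = 0.0279). Irf7, Tlr12, Ikbke, Tlr7 and Cd180 were all lower in CD43- cells, as were most of the plasmacytoid dendritic, T and NK cell markers named above. Most of the tested neutrophil markers were also lower there in WT mice, but not in dKO mice. The part of these cells in the values of the genes was not tested.

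**Figure D5:**
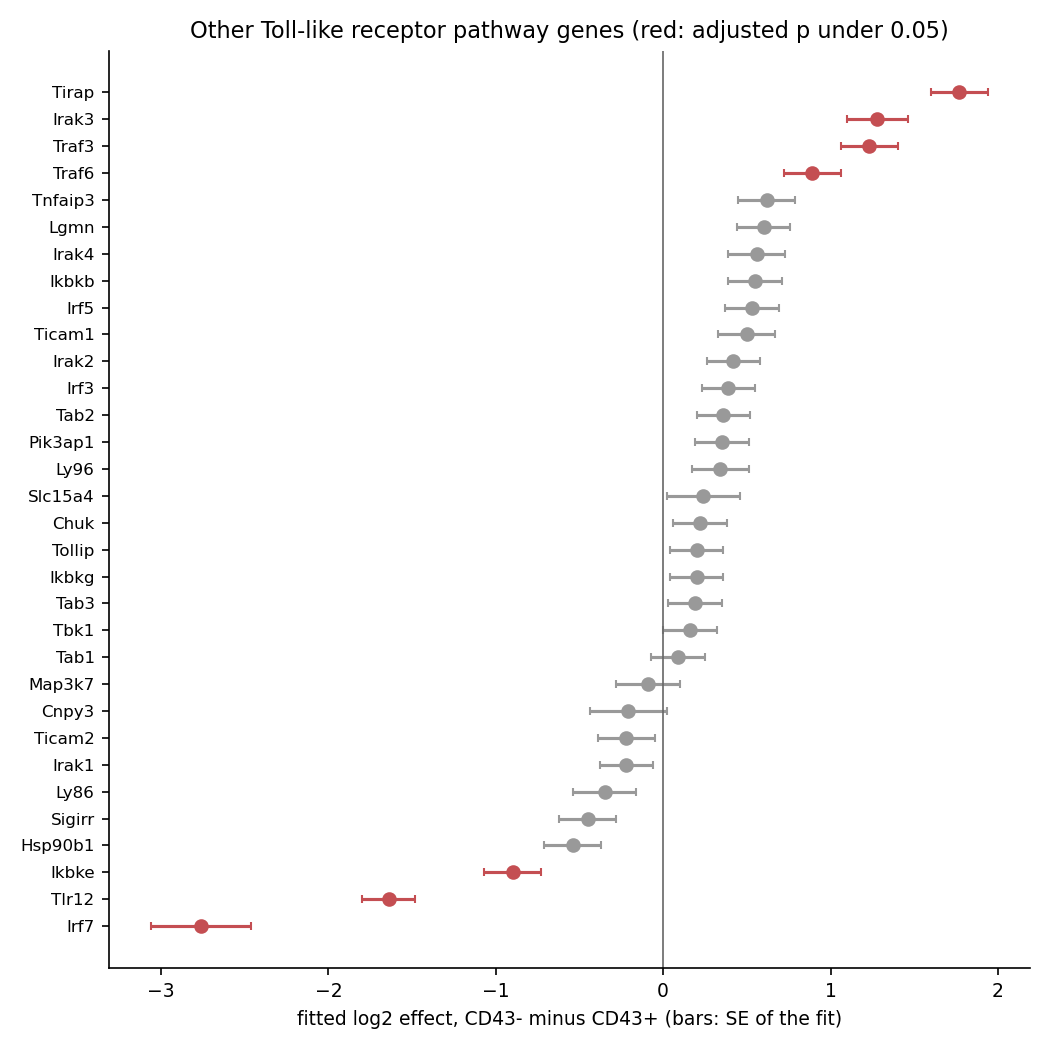
Fitted log2 effect of fraction (CD43- minus CD43+, genotype as a block, bars of 1 SE of the fit) for the 32 tested genes of the wider pathway, in red where the adjusted p was under 0.05. Tirap is highest at 1.77 and Irf7 lowest at -2.76, and 22 genes lie above 0 and 10 below.

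For genotype, none of the 32 pathway genes passed in limma (8 had an unadjusted p under 0.05), and none of those compared was 2-fold apart in either fraction. The fitted effects ran from -0.54 to 0.67. The largest differences between detected values in CD43+ cells were those of Tab2 (0.70), Irak4 (0.60) and Tnfaip3 (0.57), all higher in dKO. In CD43- cells they were those of Irf7 (0.89), Cnpy3 (-0.87) and Slc15a4 (-0.58). CNPY3 is a chaperone that folds Toll-like receptors and SLC15A4 an endolysosomal transporter needed for TLR7 and TLR9 signalling. The other genes of receptor folding, trafficking and processing on the list stood at -0.05 (Hsp90b1) and 0.31 (Lgmn) there, and Cnpy3 and Slc15a4 stood at -0.14 and 0.08 in CD43+ cells.

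The genes whose 4 centred log2 values lay nearest to a member's were listed for members detected on all arrays that spanned at least 1 on the log2 scale. For Tlr7, these were Tbc1d2b, Lgals1 and Fxyd5, at root mean square distances of 0.092, 0.094 and 0.103 over the 4 arrays, and 19 of 7013 genes lay within 0.2. For Cd180 they were Maged2, Lrrk1 and Arhgef6 (0.050, 0.052 and 0.058), with 160 genes within 0.2. For Tlr6 they were Cyb561d1, Capsl and Chd1 (0.016, 0.026 and 0.047), with 443 genes within 0.2. The number of genes at a short distance thus varied by member, from 19 for Tlr7 to 443 for Tlr6. With 4 arrays a short distance says nothing of shared function.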

How the data were processed

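RNA of 4 samples, sorted bone marrow cells with 1 array each, was measured on an Illumina MouseRef-8 array. Per the file headers, the authors deposited a GenomeStudio 1.9.0 export with no normalization, holding for each probe its mean intensity, the spread and count of its beads, and a detection score, which is a fraction from 0 to 1. The score rose with the signal, so 1 minus it was taken as the detection p. The deposited series matrix holds the authors' log2 values, made with RMA per the submitters' processing notes, with column medians of 3.77 to 3.79. Its order of genes within an array followed the scanner's signals (Spearman's rho 0.97 across genes), so its direction is known. The scale was taken as log2, which a rank correlation cannot show, and the centring is not known. In addition, 22 columns of values were not used. Probe sequences were not used here.

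Gene identifiers were matched to RefSeq (GRCm38.p6): of 18138, 14300 matched a symbol, 2885 a synonym and 953 kept their name. Signals were corrected and normalized with neqc (limma 3.58.1, R 4.3.3; offset 16, quantile normalization). Its background correction widens differences of dim genes against uncorrected signals, and a larger offset shrinks them. For Tlr1 in WT mice, CD43- minus CD43+ was 3.28, against 1.78 without background correction and 2.63 with an offset of 50. A gene was read by its probe with the highest mean, detection meant a detection p under 0.01, and a gene detected on 1 of 2 arrays was counted by a bound, with the array lacking detection set no lower than its own dimmest detected probe. With 1 array in each group, pairwise differences have no test and a call means 2-fold. Fraction and genotype were tested in an additive limma fit over the 4 arrays (lmFit, eBayes, Benjamini-Hochberg). It has 1 residual degree of freedom and counts an effect that differs between the pairs as noise. The eBayes step draws each gene's variance toward a value pooled over all genes, which gave 4.57 total degrees of freedom for each member. The SE of the fit and the p-values thus rest largely on that pooled value, and they cover only the spread between these arrays. The bead SE was carried through each array's curve of normalized log2 against signal. The named pathway genes were those past 2-fold or the adjusted p of 0.05, and otherwise the 3 with the largest differences detected on both arrays. The alternatives were no background correction, median scaling, an offset of 50, the authors' RMA values, a detection p under 0.05, no detection filter and the mean of the detected probes. Of the 10 members, 7 had promoter windows in the RefSeq table. Members, lists and motifs were chosen with earlier results of these data known.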

Additional observations from a re-analysis of the deposited data

Results flagged for a closer look

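For 2 genes the difference between dKO and WT had opposite signs in the 2 fractions, each read from 1 array against 1. Tlr6 stood at 0.01 on the log2 scale in CD43+ cells and at -0.16 in CD43- cells. Myd88 stood at 0.09 in CD43+ cells and at -0.02 in CD43- cells. All 4 values lay within their 95% bead intervals of 0, and the difference between the fractions was not tested. With 1 array in each group, no array could be compared with others of its group.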

How the results depend on the processing

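Of 452 values recomputed under 7 alternatives, 410 kept their direction and their side of the threshold or moved by less than the bead error or, for counts, 1.5 times. The alternatives on detection change which genes are tested and not their values, so member differences there stay the same by construction. The mean of the detected probes alters the values of Unc93b1 alone among the members. Part of the 410 was therefore fixed in advance. The fraction effects of Tlr1 and Tlr7 passed the adjusted p of 0.05 under every alternative run. The authors' RMA values left 1 member higher in CD43- cells (Tlr1) and 1 lower (Tlr7) past that threshold, against 2 and 2, and raised the members at least 2-fold lower in WT CD43- cells from 1 to 2 (Cd180 added). The members at least 2-fold higher in WT CD43- cells fell from 2 to 1 without background correction, with median scaling and with an offset of 50, since Tlr6 then lay under 2-fold. In dKO against WT CD43- cells, 1 member in place of 0 was at least 2-fold lower in the authors' RMA values and with the mean of the detected probes (Unc93b1, -1.06 and -1.07). The genotype fit called 1 member lower in place of 0 without background correction (Unc93b1). Over all genes that fit called 2 genes higher and 0 lower, but 228 and 235 without background correction, 85 and 104 with an offset of 50, 2 and 1 with no detection filter, and 0 in the authors' RMA values. The fraction fit called 913 genes higher and 1153 lower, 1455 and 1449 without background correction and 338 and 609 in RMA values. Median scaling moved the median of all genes between genotypes to 0.32 in CD43+ and 0.25 in CD43- cells. The genotype effect of Tlr6 changed sign there, from -0.08 to 0.16 (adjusted p = 0.524). Relative to that shift, Unc93b1 stood at -0.61 and -0.84 and Tlr7 at 0.37 and 0.70. Without background correction 11 genes were at least 2-fold higher and 38 lower in dKO CD43+ cells, 50 and 33 in dKO CD43- cells, 245 and 400 in WT CD43- against CD43+ cells and 206 and 371 in the dKO ones. With an offset of 50 the counts were 36 and 73, 103 and 59, 372 and 599, and 323 and 553, and in RMA values 379 and 353, 387 and 328, 889 and 1132, and 696 and 1071. The causes were not tested. Tlr1 in CD43+ cells, Tlr3 and Tlr4 lay near background, which limits their differences. Arrays could not be paired by animal, because the labels carry no replicate numbers. The only pairing was that of the fractions within a genotype, or the genotypes within a fraction, as blocks of the additive fit.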
